A study of Homo sapiens with 8 samples.

Results

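The pre-rRNA that carries 18S, 5.8S and 28S rRNA was described here through the peaks of NOP2/NSUN1 that lie on its 45S form. The members are every listed peak on a reference of the 45S transcript and every peak that the authors annotated as 45S rRNA on a chromosome or an unplaced sequence, and each was placed by its midpoint in a spacer (5′ETS, ITS1, ITS2, 3′ETS) or a mature rRNA (18S, 5.8S, 28S) of its own copy. This gave 37 of the 287 peaks of the C459A list (12.9%) and 43 of the 251 peaks of the WT list (17.1%), 80 of 538 in all. Of these, 26 of the C459A peaks and 31 of the WT peaks lay on 45S references, and 11 and 12 lay on the genome assembly.

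The peaks come from miCLIP-sequencing of HEK293T cells, a human embryonic kidney line, that expressed NOP2/NSUN1 with a FLAG tag from a transfected plasmid and were lysed after 40 h. The C459A libraries (2 IP and 2 SMInput) come from cells given the C459A form, in which the cysteine that lets the enzyme release its methylated RNA is replaced by alanine, and the WT libraries (2 IP and 2 SMInput) from cells given the unchanged form. Both constructs were expressed transiently from a plasmid in cells that kept their own NOP2 gene, no UV crosslink was applied to either, and the SMInput is RNA from the same part of the membrane without the immunoprecipitation. RNA of mock immunoprecipitations was too scarce for a library according to the study, so no library without the FLAG protein serves as a background. For each peak the lists give a single log2 fold change, IP over SMInput, and a single adjusted p of the caller Peakachu, in which both replicates were combined, so the spread between replicates and the depth of the libraries are unknown, and no test of C459A against WT was possible. Only peaks enriched 2-fold or more with an adjusted p below 0.05 are listed, so a peak that is missing from a list is not shown to be absent.

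In the nucleolus, RNA polymerase I makes a single long precursor in which the 18S, 5.8S and 28S rRNAs are separated by the internal spacers ITS1 and ITS2 and flanked by the external spacers 5′ETS and 3′ETS. The spacers are removed by cleavage at fixed sites, of which A′ (also called 01) and A0 lie within the 5′ETS, site 1 is the start of 18S, site 3 its end, E lies in ITS1 shortly after 18S, and further cuts in ITS1, ITS2 and the 3′ETS free 5.8S and 28S. The box C/D snoRNA U3 pairs with the 5′ETS and 18S in the early cleavages, and U8 acts on the 28S and 5.8S side. NOP2/NSUN1 is a nucleolar m5C methyltransferase, and its yeast counterpart methylates the large subunit rRNA.

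Of the 5 human 45S copies in RefSeq, RNA45SN1, RNA45SN2 and RNA45SN3 lie on chromosome 21 of hg38 (chr21:8433222-8446572, chr21:8205988-8219302 and chr21:8389035-8402343, plus strand), RNA45SN4 lies on an unlocalised sequence of chromosome 22, and RNA45SN5 on an unplaced sequence. The assembly peaks on chromosome 21 fell within RNA45SN2, those on the unlocalised sequence fell within RNA45SN4, and no peak was listed on RNA45SN5. The references of the lists are NR_145819.1-45S (RNA45SN1, with 8 peaks in C459A and 12 in WT), NR_146144.1-45S (RNA45SN2, 6 and 7), NR_146151.1-45S (RNA45SN3, 6 and 6) and NR_146117.1-45S (RNA45SN4, 6 and 6). The copies are near-identical. Between any 2 of them the 5′ETS differed at 0 to 59 aligned positions, ITS1 at 0 to 13, ITS2 at 0 to 22, 18S at no more than 1 and 5.8S at 0, so reads of one copy can be counted on another and peaks on different copies are not independent.

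The borders of the mature rRNAs are the landmarks against which the peaks are set, and the junctions that the results below turn on are shown from RNA45SN1, with the 20 bases of mature rRNA in capitals and the 20 bases of spacer in lower case. Peaks of both lists ran through the junctions at the start of 18S and of 5.8S, while none held the end of 18S or the start of 28S.
5′ETS to 18S, site 1 (chr21:8436856-8436895): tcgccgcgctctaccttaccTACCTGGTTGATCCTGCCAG
18S to ITS1, site 3 (chr21:8438725-8438764): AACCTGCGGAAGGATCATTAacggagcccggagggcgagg
ITS1 to 5.8S (chr21:8439802-8439841): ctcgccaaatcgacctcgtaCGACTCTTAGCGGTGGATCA
ITS2 to 28S (chr21:8441126-8441165): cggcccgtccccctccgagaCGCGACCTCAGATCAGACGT

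Among the peaks on 45S references, those with the largest fold changes lay on RNA45SN3 in the 3′ part of the 5′ETS, where this copy differs from the others, and a pair of these stretches is set beside the same stretch of RNA45SN1. Capitals mark the bases that differ in the alignment. Over bases 3113 to 3243 of RNA45SN3 there were 4 substitutions and 7 bases of RNA45SN1 had no counterpart, and over bases 3264 to 3321 there were 2 substitutions and 6 such bases.
RNA45SN3 3113 to 3243 (chr21:8392147-8392277): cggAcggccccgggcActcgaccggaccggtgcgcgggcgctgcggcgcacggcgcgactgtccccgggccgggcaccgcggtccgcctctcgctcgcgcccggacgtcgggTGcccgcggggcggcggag
RNA45SN1 3126 to 3263 (chr21:8436347-8436484): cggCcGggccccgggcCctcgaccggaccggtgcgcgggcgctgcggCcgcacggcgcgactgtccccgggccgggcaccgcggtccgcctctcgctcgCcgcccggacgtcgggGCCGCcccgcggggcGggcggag
RNA45SN3 3264 to 3321 (chr21:8392298-8392355): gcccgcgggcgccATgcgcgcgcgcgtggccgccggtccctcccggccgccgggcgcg
RNA45SN1 3285 to 3348 (chr21:8436506-8436569): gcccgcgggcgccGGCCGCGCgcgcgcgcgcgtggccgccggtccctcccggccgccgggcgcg

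Most 45S peaks lay in the spacers. In the C459A list 18 of the 37 peaks were in the 5′ETS, 7 in ITS1, 6 in ITS2, 5 in 28S and 1 in the 3′ETS, and in the WT list 20 of the 43 were in the 5′ETS, 7 in ITS1, 9 in ITS2, 5 in 28S and 2 in the 3′ETS. Neither list had a peak centred in 18S or 5.8S. The median log2 fold change of the 45S peaks was 2.75 in C459A, against 3.84 for the other 250 listed peaks, and 3.15 in WT, against 3.57 for the other 208. At least 4-fold over SMInput were 23 of the 37 C459A members, while 85.0% of all listed C459A peaks were, and 29 of the 43 WT members, while 86.5% of all listed WT peaks were. The fold changes of the 45S peaks were therefore smaller at the median than those of the rest of each list. The peaks were 58 to 478 bases long in C459A (median 253) and 76 to 483 in WT (median 259).

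**Figure D1:**
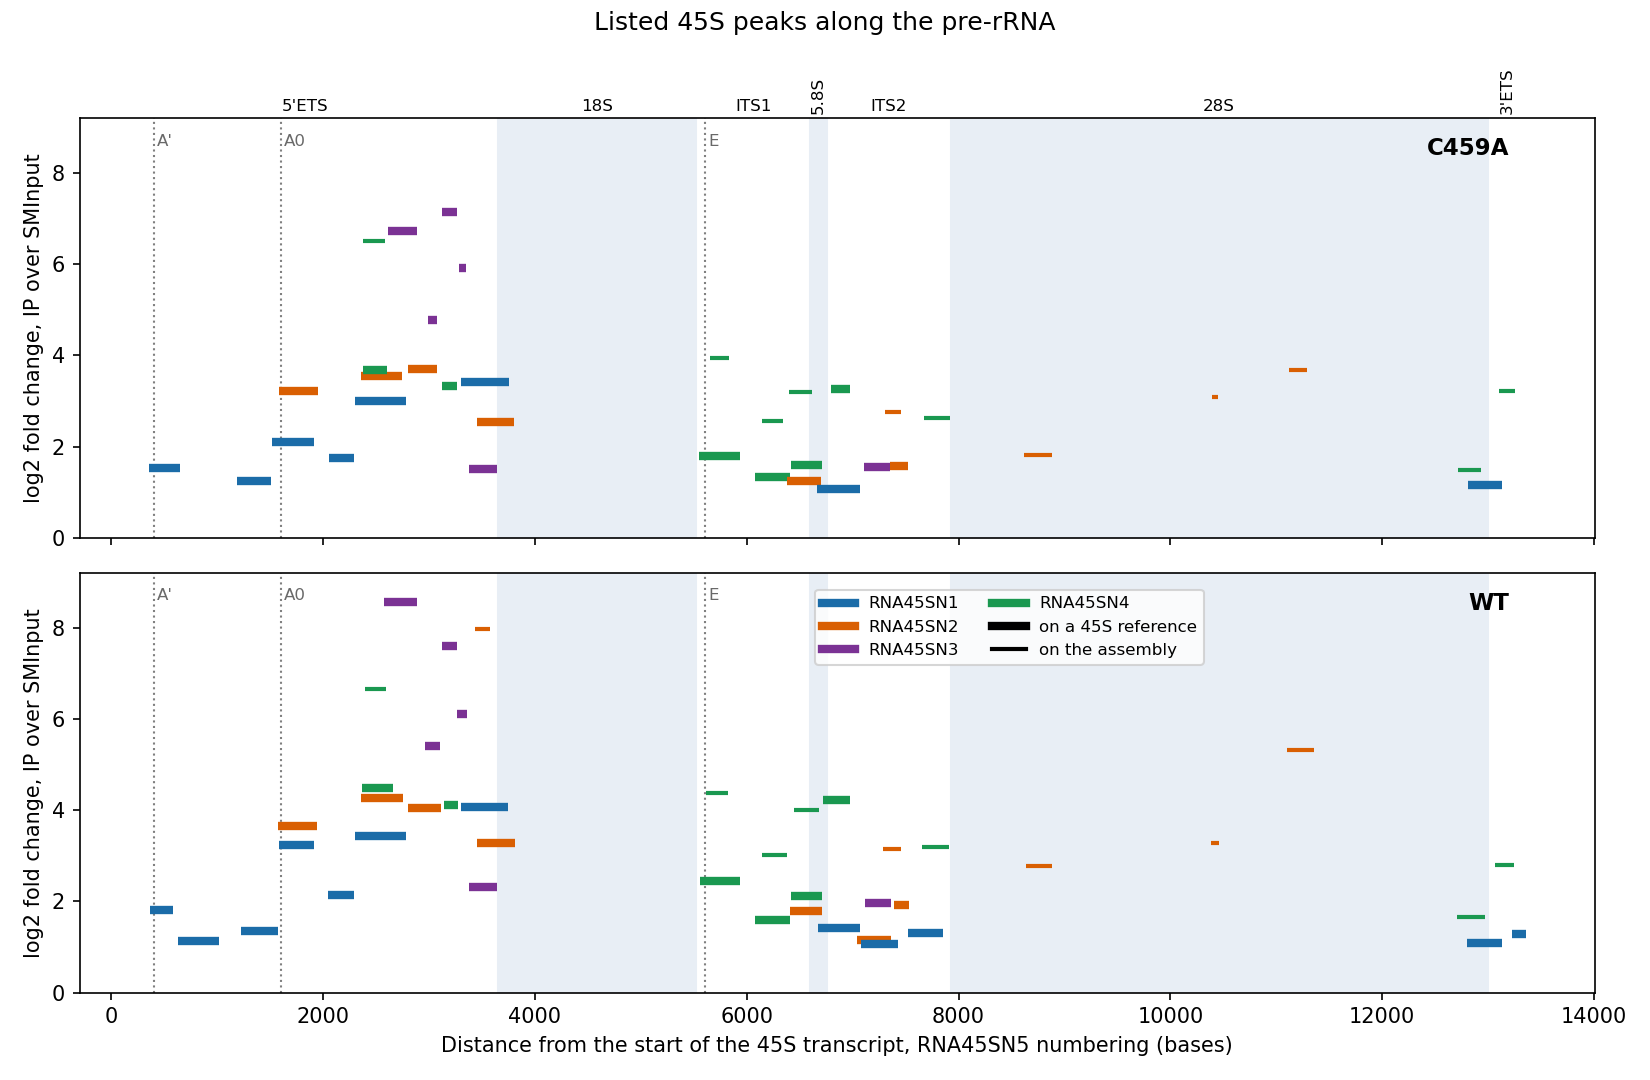
Each bar is a listed 45S peak drawn at its place on the pre-rRNA (x axis, bases from the start of the transcript after alignment to RNA45SN5) and at its log2 fold change of IP over SMInput (y axis), with C459A above and WT below, the copy in colour, mature rRNAs shaded and the approximate places of A′, A0 and E dotted. The highest bars, up to 7.14 in C459A and 8.55 in WT, stand in the 3′ part of the 5′ETS, and 18S is empty after its first bases.

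Read along the transcript, the first bases of the 5′ETS were free of peaks, up to base 351 in C459A and base 360 in WT. Next came the peak over A′, on RNA45SN1, which spanned bases 352 to 650 in C459A with a log2 fold change of 1.53 (by the authors' caller, adjusted p = 2.9e-05) and bases 361 to 580 in WT with 1.82 (adjusted p = 0.000129). A′ is an early cleavage of the precursor, and its position, taken as about base 400, is a rounded value from general knowledge and not from the files. Downstream of it the lists differed in what they held. C459A had no peak over the 534 bases 651 to 1184, whereas WT had a further RNA45SN1 peak over bases 631 to 1017 with the lowest fold change of its 5′ETS peaks, 1.13 on the log2 scale (by the authors' caller, adjusted p = 0.0227), which overlapped the C459A peak at A′ by its first bases only.

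At A0, the next cut of the 5′ETS at about base 1600, peaks on RNA45SN1 and RNA45SN2 covered the site in both lists. On RNA45SN1 the peak ran over bases 1520 to 1918 in C459A with a log2 fold change of 2.11 (by the authors' caller, adjusted p = 7.14e-11) and over bases 1584 to 1917 in WT with 3.23 (adjusted p = 4.33e-12). On RNA45SN2 it ran over bases 1582 to 1949 in C459A with 3.23 (by the authors' caller, adjusted p = 1.76e-29) and over bases 1578 to 1946 in WT with 3.65 (adjusted p = 5.4e-15). A separate, weaker RNA45SN1 peak ended short of A0, over bases 1185 to 1509 in C459A (log2 fold change of 1.24, the lowest of its 5′ETS peaks) and 1229 to 1570 in WT (1.35). Past A0, RNA45SN1 had a peak over bases 2052 to 2291 in C459A with 1.76 and over bases 2043 to 2291 in WT with 2.14.

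From base 2302 in C459A and base 2298 in WT the 5′ETS was covered up to and into 18S, apart from gaps of 46 and 16 bases in C459A and 8 bases in WT. Peaks of RNA45SN1, RNA45SN2 and RNA45SN4 lay on top of each other in this stretch, with RNA45SN1 at bases 2302 to 2779 in C459A and 2298 to 2780 in WT. In C459A they had log2 fold changes of 3.00 on RNA45SN1, 3.55 on RNA45SN2 and 3.68 on RNA45SN4, and in WT 3.44, 4.26 and 4.48 on the same copies. On the assembly, RNA45SN4 had a peak over its bases 2372 to 2581 in C459A with 6.50 (by the authors' caller, adjusted p = 5.2e-24) and over 2394 to 2591 in WT with 6.66 (adjusted p = 1e-25). Further down, the RNA45SN2 peak beginning at base 2803 in C459A and base 2802 in WT had 3.71 and 4.06, and the RNA45SN4 peak that began at base 3125 in C459A and base 3139 in WT had 3.32 and 4.12. All of these peaks stand between A0 and site 1, in the part of the 5′ETS next to 18S.

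RNA45SN3 had the largest fold changes of the 45S references here, in 4 peaks of which the sequence of 2 is printed above. The peak over bases 3113 to 3243 in C459A had the largest log2 fold change of its 45S peaks, 7.14, about 141-fold over SMInput (by the authors' caller, adjusted p = 0.000154), and its WT partner over bases 3113 to 3248 had 7.61 (adjusted p = 9.06e-05). The largest in WT, 8.55 (by the authors' caller, adjusted p = 4.56e-32), covered bases 2579 to 2881, and the C459A peak within it, over bases 2615 to 2878, had 6.73 (adjusted p = 6.47e-35). The remaining peaks of this copy in that stretch had 4.77 (bases 2979 to 3067) and 5.91 (bases 3264 to 3321) in C459A, and 5.40 (bases 2956 to 3091) and 6.11 (bases 3245 to 3335) in WT. In both lists all 4 were above every other 45S reference peak.

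Site 1, where the 5′ETS is cut from 18S, was held by peaks of the same copies in both lists. RNA45SN1 had a peak over bases 3301 to 3758 in C459A, which reached 104 bases into 18S, with a log2 fold change of 3.42 (by the authors' caller, adjusted p = 2.49e-31), and over bases 3306 to 3748 in WT, 94 bases into 18S, with 4.06 (adjusted p = 2.57e-18). RNA45SN2 had one over bases 3434 to 3788 in C459A, 145 bases into 18S, with 2.55 (by the authors' caller, adjusted p = 2.08e-13), and over bases 3439 to 3798 in WT, 155 bases into 18S, with 3.27 (adjusted p = 3.54e-12). A peak of RNA45SN3 had identical ends in both lists, bases 3348 to 3619, and stopped 12 bases before 18S, with 1.52 in C459A and 2.32 in WT. The WT list alone held an assembly peak in RNA45SN2 just before site 1 (chr21:8209410-8209550, bases 3423 to 3563 of the copy), with a log2 fold change of 7.98 (by the authors' caller, adjusted p = 0.00084).

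Beyond those first bases 18S was bare. On the RNA45SN5 coordinate no peak touched the 1753 bases 3800 to 5552 in C459A or the 1749 bases 3810 to 5558 in WT, a stretch that holds the rest of 18S, site 3 and the first bases of ITS1. The first ITS1 peak, on RNA45SN4, began 29 bases after 18S in C459A and 35 bases after it in WT. It ran to base 5941 in both lists and so held the approximate place of site E, about 80 bases into ITS1, with a log2 fold change of 1.80 in C459A (by the authors' caller, adjusted p = 2.34e-05) and 2.45 in WT (adjusted p = 1.98e-07). Cleavage at E and the later cut at site 3 finish the 3′ end of 18S. The assembly peak of the same copy began downstream of E, at base 5658 in C459A and base 5622 in WT, and had the largest fold change of ITS1 in each list, 3.95 in C459A (by the authors' caller, adjusted p = 3.3e-05) and 4.37 in WT (adjusted p = 1.82e-09).

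The middle of ITS1 was empty in both lists, over 143 bases in C459A and 137 in WT. The 3′ part of ITS1 was covered again, by RNA45SN4 peaks on the reference from base 6085 in C459A (1.33) and base 6079 in WT (1.60, the lowest of ITS1 in that list), and on the assembly from base 6146 in C459A (2.55) and base 6148 in WT (3.01). Then 3 peaks in each list ran across the junction of ITS1 and 5.8S. They had log2 fold changes of 3.20 (assembly, RNA45SN4), 1.60 (reference, RNA45SN4) and 1.24 (RNA45SN2, the lowest of ITS1) in C459A, and 4.01, 2.12 and 1.79 for the same peaks in WT. The 157 bases of 5.8S, the rRNA that pairs with 28S in the large subunit, were wholly covered in both lists by peaks centred in the spacers on either side.

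At the other end of 5.8S, where ITS2 begins, RNA45SN1 had a peak over bases 6659 to 7071 in C459A with the lowest log2 fold change of ITS2, 1.07 (by the authors' caller, adjusted p = 4.56e-05), and over bases 6670 to 7073 in WT with 1.42 (adjusted p = 0.00445). RNA45SN4 had the largest of ITS2 in each list, over bases 6794 to 6977 in C459A with 3.26 (by the authors' caller, adjusted p = 2.45e-12) and over bases 6726 to 6977 in WT with 4.22 (adjusted p = 1.04e-16). Both ended at the same base, but the C459A peak began 33 bases after the end of 5.8S and the WT peak 35 bases before it. ITS2 is cut at a site within it and then trimmed towards 5.8S and 28S.

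Deeper in ITS2 further peaks lay on RNA45SN3, RNA45SN2 and RNA45SN4. RNA45SN3 had a peak from base 7082 in C459A with a log2 fold change of 1.56 and from base 7087 in WT with 1.97, and RNA45SN2 had one over bases 7335 to 7507 in C459A with 1.57 and over bases 7371 to 7514 in WT with 1.93. The assembly peak of RNA45SN2 (chr21:8213275-8213426 in C459A and chr21:8213250-8213426 in WT) had 2.75 and 3.15. WT held 3 more ITS2 peaks with fold changes close to the threshold of its list. That on RNA45SN2 over bases 7020 to 7340 had 1.16 and met a C459A peak by its last bases. Those on RNA45SN1 met none on that reference. They had 1.07 over bases 7079 to 7432 (by the authors' caller, adjusted p = 0.035), the lowest of ITS2 in WT, and 1.31 over bases 7518 to 7855 (adjusted p = 0.00924). The last ITS2 peak, on the assembly in RNA45SN4, stopped 3 bases before 28S in C459A, with 2.62, and 13 bases before it in WT, with 3.18.

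Of the 28S part of the 45S transcript most was free of peaks. The peaks centred there were 3 assembly peaks of RNA45SN2, 1 of RNA45SN4 and 1 on the RNA45SN1 reference in each list. The largest was chr21:8217067-8217245 in C459A, with a log2 fold change of 3.69 (by the authors' caller, adjusted p = 2.5e-06), and chr21:8217049-8217304 in WT, with 5.31 (adjusted p = 9.44e-10). The other assembly peaks of RNA45SN2 had 1.82 (from base 8596) and 3.10 (from base 10354) in C459A, and 2.77 (from base 8612) and 3.28 (from base 10351) in WT. That of RNA45SN4 had 1.48 in C459A and 1.65 in WT. The lowest was the RNA45SN1 peak across the end of 28S, over bases 12809 to 13127 in C459A with 1.16 (by the authors' caller, adjusted p = 5.91e-05) and over bases 12795 to 13126 in WT with 1.09 (adjusted p = 0.0322). References of mature 28S have peaks of their own in these lists, 10 in C459A and 13 in WT, and are not counted among the 45S members. In the 3′ETS, whose removal is an early step, an assembly peak of RNA45SN4 had 3.21 in C459A (by the authors' caller, adjusted p = 0.00459) and 2.79 in WT (adjusted p = 0.00579). WT alone also had a peak on RNA45SN1 that ran to the last base of the reference, over bases 13216 to 13351, with 1.29 (by the authors' caller, adjusted p = 0.0297).

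**Figure D2:**
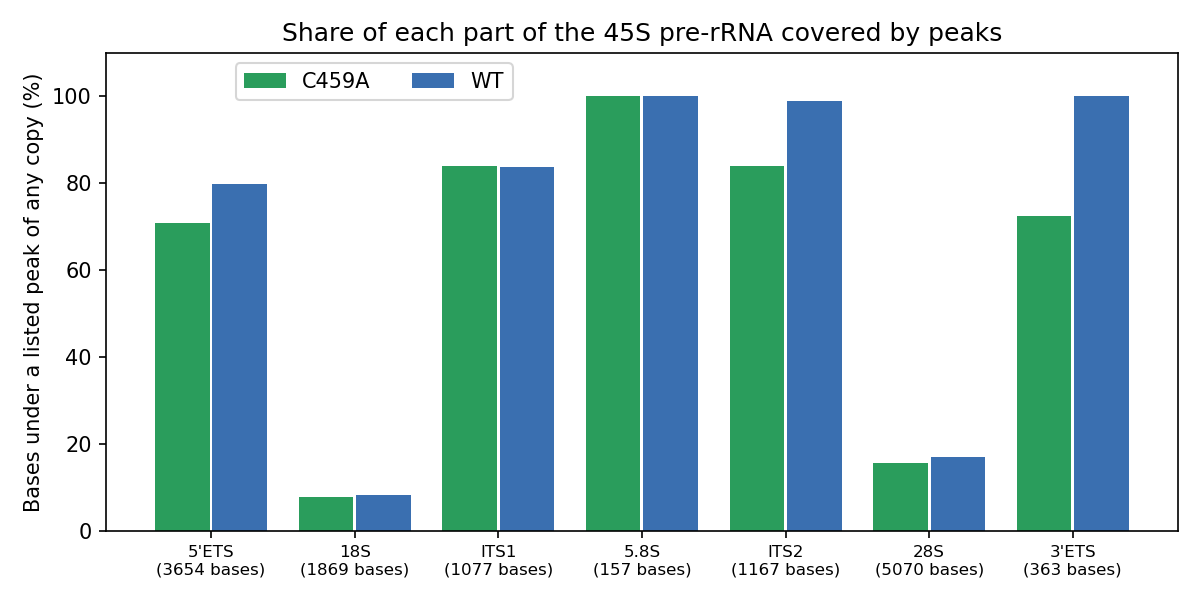
Bars show the percent of bases of each part of the transcript (x axis, with its length on RNA45SN5) that lay under at least 1 listed peak of any copy, C459A in green and WT in blue. Spacers and 5.8S are covered for 70.7% or more in both lists, while 18S (7.76% in C459A and 8.29% in WT) and 28S (15.6% and 17.0%) are mostly uncovered. Peaks on references of mature 28S are not drawn.

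Placed on a common coordinate, the peaks of all copies covered 70.7% of the bases of the 5′ETS in C459A and 79.8% in WT. For ITS1 the shares were 84.0% in C459A and 83.8% in WT, for ITS2 83.9% and 98.9%, and for the 3′ETS 72.5% and 100%. The mature rRNAs 18S and 28S stood apart from the spacers, with 7.76% and 15.6% in C459A, and 8.29% and 17.0% in WT. The peaks on references of mature 28S, 10 in C459A and 13 in WT, are not members and do not count in this coverage. The share of 28S therefore does not describe all listed peaks on that rRNA. The spacers are richer in G and C than 18S. G and C made up 79.2% of the 5′ETS, 79.9% of ITS1, 83.1% of ITS2 and 84.0% of the 3′ETS, against 56.1% of 18S, 57.3% of 5.8S and 69.4% of 28S. Within 28S the covered bases had 78.8% G and C in C459A, against 67.7% for the uncovered ones, and 79.6% in WT, against 67.3%. Covered bases were also richer in G and C in the 5′ETS in both lists and in ITS2 in WT. The order was reversed in 18S, with 48.3% against 56.8% in C459A and 47.7% against 56.9% in WT. ITS1 was likewise reversed, with 79.4% against 82.6% in C459A and 79.2% against 83.9% in WT. In C459A, ITS2 and the 3′ETS were reversed too. All of 5.8S was covered, at its lower content. The part of base composition in the peak pattern was not tested.

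The Northern probes with which the study followed the precursors give a further set of landmarks. The probe for the 5′ETS matched its first 50 bases with 2 differences and the probe for ITS1 matched bases 5516 to 5543, which span the end of 18S, and both fell in stretches without a peak in either list. The ITS2 probe, at bases 6845 to 6892 with 1 difference, was held by 2 peaks in C459A and 2 in WT, and the 3′ETS probe, at bases 13157 to 13181, by 1 in each. The 5.8S probe, at bases 6668 to 6687, was held by 3 peaks in C459A and by 2 in WT, where 4 peaks touched it. The probes for 18S and 28S were in no 45S peak of either list.

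The C459A and WT peaks lay in nearly the same places. All 37 C459A members shared bases with a WT peak, against 71.8% of all listed C459A peaks, and 39 of the 43 WT members shared bases with a C459A peak, against 82.5% of all listed WT peaks. The 4 WT members without a partner were the RNA45SN2 assembly peak before site 1, the RNA45SN1 peaks of ITS2 that began at bases 7079 and 7518, and the RNA45SN1 peak of the 3′ETS described above. A partner had to lie on the same reference or assembly sequence. On the common coordinate, C459A peaks of another copy or target covered all or part of each of these 4, so they are not places bound in WT alone. In each of the 37 pairs the shared bases made up at least 50% of both peaks. The starts differed by a median of 11 bases (at most 68) and the ends by a median of 7 (at most 70), and in 19 pairs both ends were within 20 bases.

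The log2 fold change was lower in C459A than in WT in 35 of the 37 pairs (94.6%), against 52.9% of all 206 overlapping pairs of the lists. The median of C459A minus WT was -0.46 (range -1.82 to 0.43) over the 45S pairs and 0.14 over the other 169 pairs, of which 74 (43.8%) were lower in C459A. A fold change lower in C459A by at least 1.5 times was found in 14 of the 37 pairs, against 25.2% of all 206, and no 45S pair was higher in C459A by that much. Each fold change is relative to the SMInput of its own construct and the lists were called separately, so a difference between lists that acts on many RNAs at once cannot be told apart from a difference at the pre-rRNA. The pairs of mature 28S references were lower in C459A in 9 of 9 (median -0.64). Of the 10 C459A peaks on those references, 9 had a WT partner, and a peak without a partner has no place in this comparison. Those of SNORD genes were lower in 24 of 52 (median 0.11) and those of 5S pseudogenes in 9 of 38 (median 0.37). Of all pairs that were neither 45S nor on 28S references, 65 of 160 were lower in C459A (median 0.16). RNAs outside the named classes were lower in 13 of 51 pairs (median 0.37). Some classes outside nuclear rRNA were nevertheless lower in C459A throughout. L1 elements, a family of retrotransposons, were lower in 12 of 12 pairs (median -0.72, range -1.48 to -0.35), and the mitochondrial rRNAs MT-RNR1 and MT-RNR2 in 7 of 7 (median -0.50, range -1.09 to -0.15), with some pairs sharing a WT peak. Both of these groups were chosen after their values were seen.

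**Figure D3:**
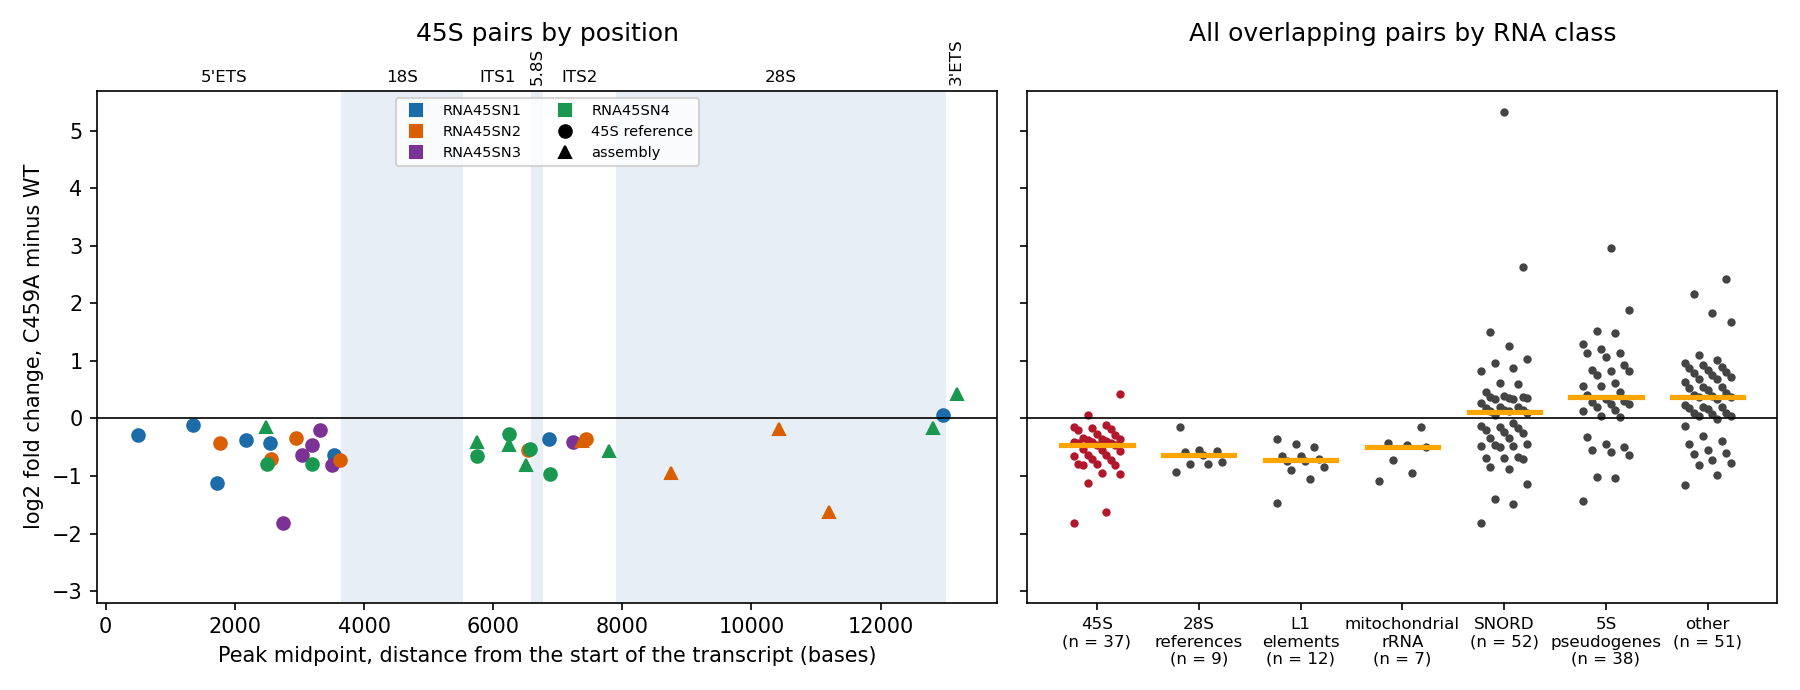
Left, the C459A minus WT difference of the log2 fold change (y axis) of each overlapping 45S pair against the midpoint of the C459A peak (x axis, bases from the start of the transcript), with the copy in colour and the kind of reference by symbol. Right, the same difference for every overlapping pair by RNA class, with orange lines for medians. All but 2 of the 37 45S pairs lie below 0, as do all 9 pairs of 28S references, all 12 of L1 elements and all 7 of mitochondrial rRNA, while those of SNORD genes, 5S pseudogenes and the remaining RNAs lie on both sides of it.

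By region, 18 of 18 pairs of the 5′ETS were lower in C459A (median -0.55), 7 of 7 of ITS1 (median -0.53), 6 of 6 of ITS2 (median -0.40) and 4 of 5 of 28S (median -0.18). The steepest differences were on RNA45SN3 in the 5′ETS, 6.73 in C459A against 8.55 in WT, on the RNA45SN2 assembly peak in 28S, 3.69 against 5.31, and on the RNA45SN1 peak at A0, 2.11 against 3.23. Higher in C459A were only the RNA45SN1 peak across the end of 28S, 1.16 against 1.09, and the RNA45SN4 assembly peak of the 3′ETS, 3.21 against 2.79. Both stand at the 3′ end of the transcript, but the RNA45SN4 assembly peak in the last part of 28S was lower in C459A, 1.48 against 1.65. The same direction was seen on 7 of 8 pairs of RNA45SN1, 10 of 10 of RNA45SN2, 6 of 6 of RNA45SN3 and 12 of 13 of RNA45SN4, which do not count as independent because the copies can share reads. Peakachu's adjusted p did not follow the fold change. It was smaller in C459A in 21 of the 37 pairs, against 64.6% of all 206 pairs. At A0 on RNA45SN2, for example, the C459A peak had the lower fold change and the smaller adjusted p.

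The fold changes differed between the copies. On the references, RNA45SN1 peaks had a median log2 fold change of 1.64 in C459A (8 peaks) and 1.38 in WT (12 peaks), RNA45SN2 peaks 2.89 (6) and 3.27 (7), RNA45SN3 peaks 5.34 (6) and 5.75 (6), and RNA45SN4 peaks 2.53 (6) and 3.29 (6). RNA45SN1 is identical to RNA45SN5 in the 5′ETS, ITS1 and ITS2, and no peak of it in either list held a run of 40 bases that is found in no other copy. To describe this for all members, the share of 40-base windows of each peak that occur in none of the other 4 copies was computed. The 4 peaks in each list with at least 50% of such windows were the 4 high peaks of RNA45SN3 in the 5′ETS, with a median log2 fold change of 6.32 in C459A (range 4.77 to 7.14) and 6.86 in WT (range 5.40 to 8.55), against 2.55 and 2.79 for the remaining peaks. Peaks without any such window had a median of 1.76 in C459A (13 peaks) and 1.82 in WT (19 peaks). The set at 50% or more depended on the window. With 60-base windows, tried after seeing the data, it held 7 peaks in each list, among them RNA45SN2 and RNA45SN4 peaks outside the 5′ETS, and its median was 3.95 in C459A (lowest value 2.75) and 5.40 in WT (lowest value 3.28). In C459A only 36 peaks could be measured so. The high RNA45SN3 peak of 58 bases (log2 fold change of 5.91) was too short and dropped out.

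**Figure D4:**
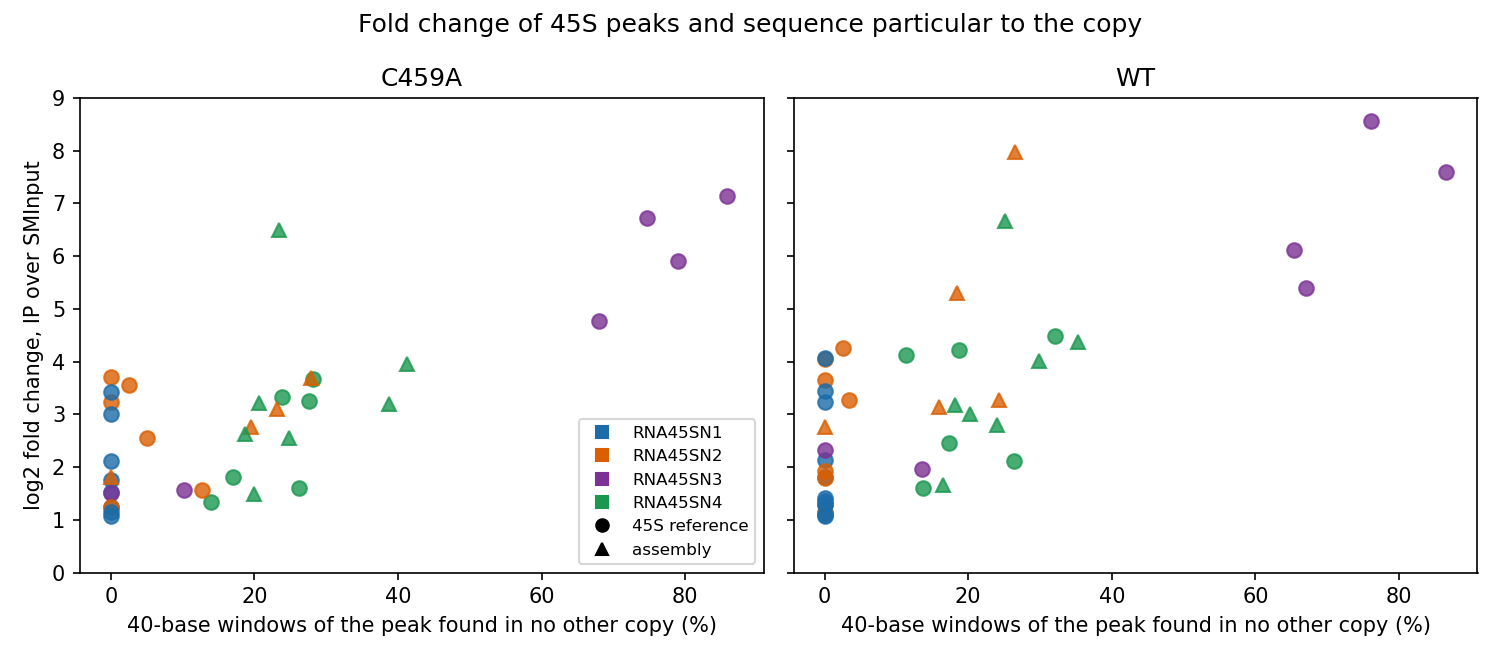
Each point is a 45S peak, with the percent of its 40-base windows found in no other 45S copy on the x axis and its log2 fold change of IP over SMInput on the y axis, C459A left and WT right, the copy in colour and the kind of reference by symbol. The 4 points to the right in each panel are RNA45SN3 peaks of the 5′ETS, at 4.77 or higher, and the RNA45SN1 peaks stand at 0%.

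Across all members, Spearman's rho between that share and the log2 fold change was 0.63 in C459A (37 peaks) and 0.68 in WT (43 peaks), and Pearson's r was 0.77 and 0.74. Outside the 5′ETS, where no RNA45SN3 peak reached 50%, rho was 0.81 in C459A (19 peaks) and 0.80 in WT (23 peaks). These are descriptions across peaks that share libraries, reads and base composition. The same copy also gave different values by the target to which reads were aligned. Where an assembly peak of RNA45SN2 or RNA45SN4 overlapped a peak on the 45S reference of the same copy, taking the reference peak that shared most bases, the assembly peak had the larger log2 fold change in 5 of 5 cases in C459A (by 1.18 to 2.83, median 1.61) and in 6 of 6 in WT (by 1.41 to 4.71, median 1.95). Counting every overlapping reference peak, added after seeing the data, it was larger in 6 of 6 combinations in C459A and in 7 of 7 in WT, where the smallest gap was then 1.22. For RNA45SN4 between A0 and site 1 the assembly peak had 6.50 in C459A and 6.66 in WT, and the reference peak 3.68 and 4.48. The largest gap was the WT assembly peak before site 1, 7.98, over a reference peak of RNA45SN2 with 3.27. How reads were divided between the copies and between the assembly and the references was not tested.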

How the data were processed

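miCLIP-sequencing libraries of HEK293T cells were grouped by construct and by IP or SMInput from their labels (2 libraries in each of 4 groups). According to the submitters' processing notes and the methods, the authors trimmed reads with cutadapt, moved the UMI to the read name with fastp, aligned reads to repetitive element families and to hg38, and called peaks with Peakachu on both replicates of a construct. Their versions were not given in the sources used here. By construct, the authors deposited 1 list of enriched peaks, with, for each peak, the adjusted p-value on the −log10 scale, from which the p-value itself was recomputed, and the log2 fold change between IP and SMInput. The lists hold no counts, so depth and precision are unknown. Columns of peak positions and annotation were used to find the members.

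The 5 copies were cut from hg38 with RefSeq's places of 18S, 5.8S and 28S, aligned with mafft 7.526, and peaks were carried to RNA45SN5 through the alignment. Pairs share at least 1 base on the same reference, each C459A peak with the WT peak that shares most bases. A peak was counted at an internal site (A′, A0, E) within 100 bases of it and at a border of a mature rRNA only if it held the border. Peaks given in full hold a site, have the largest or smallest log2 fold change of a region, or lack a partner. Further peaks were given by place and value. The members, lists and landmarks were chosen with earlier results of these data known. Pairing was tested on simulated peaks and projection on randomly drawn positions, while coverage was not tested in this way. The check of projection asked only for the same region and a roughly similar distance from its start, so it could not detect small shifts. Python 3.11.15, numpy 2.4.6, scipy 1.17.1, edlib 1.3.9.post1 and matplotlib 3.10.9 were used.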

Additional observations from a re-analysis of the deposited data

How the results depend on the processing

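No paired analysis was possible because each listed value combines both replicates of a construct. For the same reason no replicate could be left out. Of 242 values recomputed under alternatives, 185 stayed within 1.5 times of the reported value (log2 values within the log2 of 1.5) and 57 moved further. Some of the 185 could not have moved, because a count of 0 stays at 0 when peaks are filtered out. A change of sign was possible only for the median of C459A minus WT, and 0 of its alternatives changed sign. Over the alternatives, the median of C459A minus WT over the 45S pairs ranged from -0.59 (relative to the median of the other pairs) to -0.36 (RNA45SN1 only), and the share lower in C459A from 87.5% to 97.3%, with 25 of 26 lower in C459A on references, 10 of 11 on the assembly, 33 of 34 at an adjusted p under 0.01, 22 of 23 at 4-fold or more, 36 of 37 relative to the median of the other pairs and, added after seeing the data, 35 of 39 paired from the WT list.

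On 45S references only, ITS1 had 4 peaks in C459A and 4 in WT, 28S had 1 (median log2 fold change of 1.16) and 1 (1.09), and the 3′ETS 0 and 1 (1.29). Coverage of 28S was then 3.59% in C459A and 3.87% in WT, and that of the 3′ETS 38.3% in C459A. On the assembly only, the 5′ETS had 1 peak (6.50) in C459A and 2 (7.32) in WT, ITS1 3 (3.20) and 3 (4.01), and ITS2 2 (2.69) and 2 (3.17). The median of 28S was 2.46 in C459A, and the 3′ETS had 1 peak (2.79) in WT. On RNA45SN1 only, the medians in C459A were 1.93 for the 5′ETS, 1.07 for ITS2 and 1.16 for 28S, and in WT 2.14, 1.31 and 1.09, with 1.29 for the 3′ETS. Placed by first base, 5.8S had 1 peak in C459A and 2 in WT.

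At 4-fold or more, 3 ITS1, 3 ITS2 and 2 28S peaks remained in C459A, and 3 ITS2, 3 28S and 1 3′ETS peak in WT. Coverage then fell to 47.1% of the 5′ETS, 53.9% of ITS1, 9.55% of 5.8S, 50.0% of ITS2, 4.81% of 28S and 44.1% of the 3′ETS in C459A, and to 55.5% of ITS2 and 49.9% of the 3′ETS in WT. At an adjusted p under 0.01, WT had 3 28S peaks, 0 at the end of 28S and 1 in the 3′ETS (2.79, coverage of 49.9%). Coverage of the 5′ETS was then 70.7% in C459A and 69.2% in WT, the reverse of the order without that limit. With no tolerance, 1 peak held E in C459A and 1 in WT. Positions of A′, A0 and E are approximate.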
